A study of Homo sapiens with 6 samples.

Results

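The glutamate transport and glutamine metabolism genes are SLC1A1, SLC1A3, SLC1A4, SLC1A5, GLUD1, GLUL, GOT1 and GOT2, chosen by name from the 23002 genes of the deposited table. All 8 were found, and all 8 passed the filter on low values that left 11870 genes for testing. RNA was sequenced from U251, an established human glioblastoma line, as 3 samples with a control hairpin (sh-NC) and 3 with a hairpin against TRAF2 (sh-TRAF2), each stably delivered by lentivirus and with no other treatment in the labels. Each group is a stably transduced line, so the effect of the hairpin and a difference between the lines cannot be told apart. TRAF2 is the adaptor and ubiquitin ligase that TNF receptors recruit.

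Glutamate and glutamine carry nitrogen and carbon through the cell. In the brain, astrocytes clear the transmitter glutamate with carriers of the SLC1 family, and glutamine synthetase turns it into glutamine, which neurons take up again. Glioma cells often take up much glutamine, and glutamate dehydrogenase and the transaminases pass the carbon of glutamate on to 2-oxoglutarate of the citric acid cycle.

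The comparison asks how these transcripts differed after TRAF2 knockdown. Of the 8 genes, SLC1A3, GOT1 and GOT2 rose, SLC1A1 and SLC1A4 fell, and SLC1A5, GLUD1 and GLUL did not pass the test. The 3 rises and 2 falls compare with 23.7% of all tested genes that rose and 20.9% that fell, or 44.6% in either direction (limma on log2(FPKM + 0.1), Benjamini-Hochberg adjusted p under 0.05), so nothing particular to these genes is read from 5 of 8 (62.5%). The median log2 fold change, in which rises and falls offset each other, was 0.0054 over the 8 genes and 0.019 over all tested genes. Without regard to sign the median was 0.153 over the 8 genes and 0.187 over all tested genes. Only SLC1A1 also passed the study's fold threshold, an absolute log2 fold change above 1, as did 1.72% of the tested genes (0.986% higher and 0.733% lower). No sample of one group reached into the other for 5 of the 8 genes and for 55.5% of all tested genes (29.0% with sh-TRAF2 higher, 26.5% with it lower).

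Each sample held 33999558 to 36823562 reads on genes. Counting noise did not cover the spread inside either group, where the chi-square of 2 samples was 5.01 to 12.2 per gene. TRAF2 itself had an FPKM of 15.1, 18.4 and 15.3 in sh-NC and of 3.26, 3.22 and 3.33 in sh-TRAF2, a log2 fold change of -2.27 (standard error 0.079, limma adjusted p = 1.16e-06). VIM lay at 1208 to 1606 FPKM and CD44 at 177 to 192 in the 6 samples, while the astrocyte genes GFAP, at 0.334 to 1.62 FPKM, and S100B, at 0 to 0.0228, were low or nearly absent. Other genes of the same marker list were not low, with SOX2 at 24.1 to 28.7 FPKM and SOX9 at 28.1 to 32.7. Of 10 glioblastoma line markers analysed 8 were tested, and VIM, NES and GFAP rose and EGFR fell. The groups overlapped for GFAP, at 0.334 to 0.666 FPKM in sh-NC and 0.562 to 1.62 in sh-TRAF2, but not for VIM, NES and EGFR. The summed level of the 10 markers was 1491 to 1563 FPKM in sh-NC and 1826 to 1870 in sh-TRAF2. Of 7 neuron markers 2 were tested, SYT1 and NEFL, and both fell, with the summed level going from 52.5 to 62.3 down to 36.5 to 40.6 FPKM, a sum carried by these genes. Among the neuron markers not tested, SNAP25 was higher in sh-TRAF2 (0.487 to 0.703 FPKM) than in sh-NC (0.201 to 0.383 FPKM), and RBFOX3 stayed at or below 0.0030 FPKM. Of 4 immune markers analysed only CD68 was tested and it did not pass, and PTPRC was at or below 0.0045 FPKM. Of 5 endothelial and pericyte markers 1 of the 2 tested rose, KDR, and PECAM1 was at or below 0.0078 FPKM. The part of these shifts in the results below was not tested. In RNA from whole cultures, fewer cells with a transcript and less of it per cell cannot be told apart.

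The hairpin targets define the comparison, and the sources used here do not say which of the 2 was sequenced. Both are 21 bases long and match transcripts of TRAF2 alone in full. The capitals mark bases 10 to 16 of the first, a heptamer drawn from an earlier scan of these data.
sh-TRAF2#1: cccttgcagATTCCACgccat
sh-TRAF2#2: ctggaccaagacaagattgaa
None of the 8 genes holds ATTCCAC in its longest 3′UTR or longest coding sequence. Of the 10607 tested genes with a 3′UTR, 10.7% hold it in the longest one, and coding sequences were not counted over all genes. At such a share its absence from 8 genes tells nothing particular about them. The longest exact run shared between a hairpin target and any transcript of the 8 genes was 9 bases, in GLUD1 and GOT2 for the first hairpin.

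**Figure D1:**
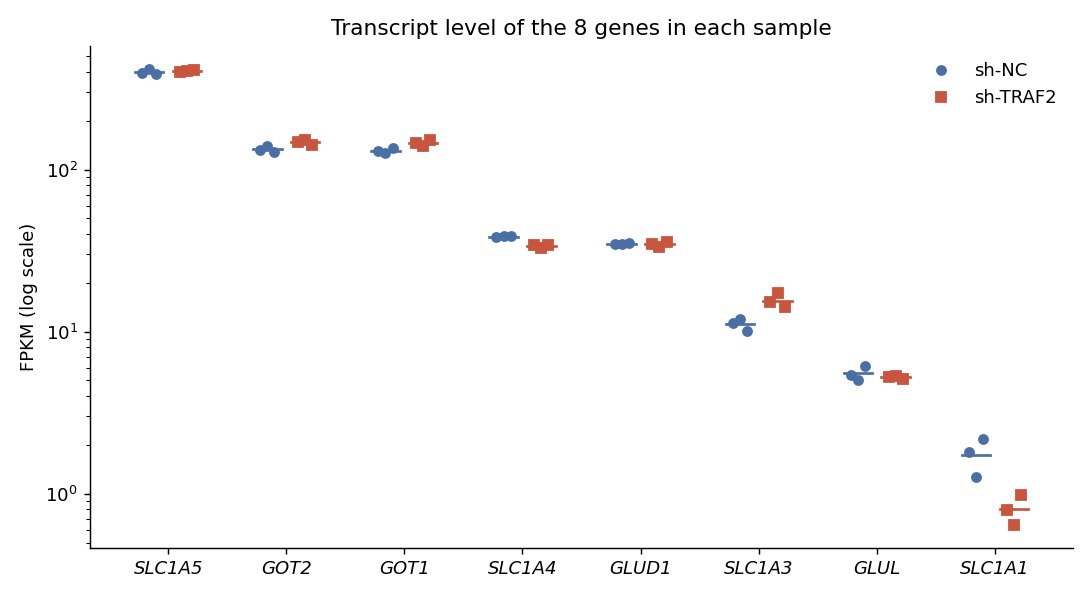
FPKM (log axis) of the 8 genes in each of the 3 sh-NC (circles) and 3 sh-TRAF2 (squares) samples, with a bar at each group mean. SLC1A5 stands highest, at 390.2 to 419 FPKM over the samples, and SLC1A1 lowest, at 1.26 to 2.17 in sh-NC and 0.643 to 0.979 in sh-TRAF2.

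Per length of transcript, SLC1A5 was the most abundant of the 8 genes in both groups, with a mean of 401 FPKM in sh-NC, and ranked 122nd of the 23002 genes by mean FPKM. GOT2 (134 FPKM) and GOT1 (131 FPKM) followed in sh-NC, and their ranges overlapped in both groups. SLC1A4 (38.6 FPKM) and GLUD1 (35.0 FPKM) came next, then SLC1A3 (11.2 FPKM), GLUL (5.55 FPKM) and SLC1A1 (1.74 FPKM). SLC1A4 lay above GLUD1 in every sh-NC sample, but their ranges overlapped in sh-TRAF2 (33.0 to 34.1 and 33.5 to 35.6 FPKM). No other neighbouring pair overlapped in either group.

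SLC1A1, on chromosome 9 of GRCh38 from 4490444 to 4587469, encodes EAAC1, a high-affinity carrier of glutamate, aspartate and cysteine that is best known from neurons. Its FPKM was 1.81, 1.26 and 2.17 in sh-NC and 0.789, 0.643 and 0.979 in sh-TRAF2. The groups were apart, with sh-TRAF2 lower, although the lowest sh-NC sample was nearer to the sh-TRAF2 samples than the others were. The mean was lower by 53.9%, from 1.74 ± 0.455 to 0.803 ± 0.168 FPKM (SD, n = 3). The fitted log2 difference was -1.02 with a standard error of 0.21 (95% interval -1.499 to -0.53, limma adjusted p = 0.00529). Two-sided exact permutation gave p = 0.1, the smallest that 3 samples against 3 allow.

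These SLC1A1 values rest on 309, 217 and 387 reads in sh-NC and on 132, 106 and 165 in sh-TRAF2. The spread within sh-NC, a coefficient of variation of 26.1%, exceeded the 5.73% that counting alone gives. The fold threshold was narrowly passed: without sh-NC replicate 1, sh-NC replicate 3 or sh-TRAF2 replicate 2 the log2 fold change was -0.98, -0.85 and -0.88, and with a pseudocount of 1 it was -0.60, while the adjusted p stayed under 0.05 in each case. SPATA6L, a gene on the other strand that shares no exon base with SLC1A1, was at 0.671 FPKM in sh-NC and 0.523 in sh-TRAF2 and did not pass (log2 fold change -0.32, adjusted p = 0.178 from limma). Over the 6 samples DYNC2LI1, DPYD and ATXN1 followed the log2 values of SLC1A1 most closely (Pearson r 0.998, 0.997 and 0.996), but 1035 genes had an r of at least 0.9, all sharing the same 6 libraries and the same group difference.

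SLC1A3, on chromosome 5 from 36606355 to 36688334, encodes GLAST, the main glutamate carrier of astrocytes and radial glia beside that of SLC1A2. Its FPKM was 11.3, 12.03 and 10.1 in sh-NC and 15.2, 17.3 and 14.2 in sh-TRAF2, with no overlap. The mean rose by 39.4%, from 11.2 ± 0.959 to 15.5 ± 1.6 FPKM (SD, n = 3), and the fitted log2 difference was 0.47 (standard error 0.087, limma adjusted p = 0.00282). The change kept its direction and its side of the threshold in all 15 alternative fits, including the 6 that left out 1 sample, where it lay between 0.39 and 0.54. The other astrocyte carrier, SLC1A2, was nearly silent, with a mean of 0.0048 FPKM in sh-NC and 0.0064 in sh-TRAF2, and was not tested. The level of SLC1A3 was 6.26, 9.53 and 4.67 times that of SLC1A1 in the sh-NC samples and 19.2, 26.9 and 14.5 times in the sh-TRAF2 samples. This ratio was formed after the values were seen and moves with both changes given above.

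SLC1A4 and SLC1A5 encode the exchangers ASCT1 and ASCT2, which swap neutral amino acids such as serine, alanine and cysteine, and in the case of ASCT2 also glutamine, across the plasma membrane. SLC1A4, on chromosome 2 from 64988477 to 65023865, had 38.2, 39.0 and 38.7 FPKM in sh-NC and 34.1, 33.0 and 34.1 in sh-TRAF2. The groups were narrow and separate, and the mean fell by 12.7% (log2 fold change -0.20, standard error 0.036, limma adjusted p = 0.0028). Its coefficient of variation within sh-NC, 1.116%, was no larger than the 1.23% of counting alone, while within sh-TRAF2 it was 1.84% against 1.35%. SLC1A5, on chromosome 19 from 46774883 to 46788594, had 394, 419 and 390 FPKM in sh-NC and 403, 407 and 410 in sh-TRAF2. All sh-TRAF2 values fell within the sh-NC range. The log2 fold change of SLC1A5 was 0.022 (95% interval -0.056 to 0.099, limma adjusted p = 0.632), with at least 44137 reads in each sample.

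The summed FPKM of the SLC1 carriers SLC1A1 to SLC1A5 was 453 ± 16.7 in sh-NC and 457 ± 3.22 in sh-TRAF2 (SD, n = 3), and the groups overlapped. SLC1A5 made up 88.6% ± 0.26 of it in sh-NC and 89.0% ± 0.215 in sh-TRAF2. The share of SLC1A4 was 8.54% ± 0.248 in sh-NC and 7.38% ± 0.163 in sh-TRAF2, and that of SLC1A3 was 2.46% ± 0.144 and 3.40% ± 0.349. SLC1A1 contributed 0.388% ± 0.113 in sh-NC and 0.176% ± 0.0364 in sh-TRAF2. The shares of SLC1A1, SLC1A3 and SLC1A4 did not overlap between groups, and no test was made of them.

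**Figure D2:**
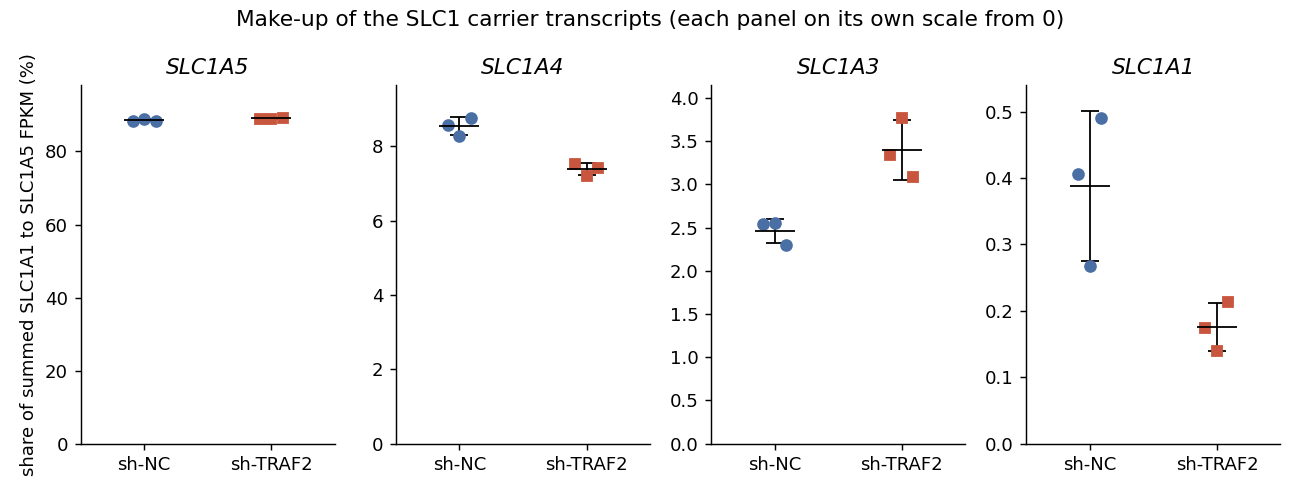
Share of each SLC1 carrier in the summed FPKM of SLC1A1 to SLC1A5 (%), for 3 sh-NC (circles) and 3 sh-TRAF2 (squares) samples, with mean and SD; each panel has its own axis from 0. SLC1A5 holds 88.4% to 89.3% in the 6 samples, SLC1A3 is higher and SLC1A4 and SLC1A1 are lower in every sh-TRAF2 sample.

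GLUL, on chromosome 1 from 182381704 to 182392206, encodes glutamine synthetase, which joins ammonia to glutamate and marks astrocytes in normal brain. Its FPKM was 5.42, 5.06 and 6.18 in sh-NC and 5.24, 5.33 and 5.12 in sh-TRAF2. The sh-TRAF2 samples lay within the sh-NC range. The log2 fold change was -0.081 (95% interval -0.26 to 0.10, limma adjusted p = 0.429). The spread of GLUL in sh-NC, 10.3%, was above that in sh-TRAF2, 2.00%, and sh-NC replicate 3 was the highest.

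GLUD1, on chromosome 10 from 87050486 to 87094866, encodes glutamate dehydrogenase of the mitochondrial matrix. It had 34.9, 34.8 and 35.2 FPKM in sh-NC and 34.9, 33.5 and 35.6 in sh-TRAF2. The sh-TRAF2 samples reached both below and above the sh-NC samples, and the log2 fold change was -0.011 (95% interval -0.099 to 0.077, limma adjusted p = 0.837). GLUD2, an intronless copy, was at 0.141 ± 0.0636 FPKM in sh-NC and 0.201 ± 0.00889 in sh-TRAF2 (SD, n = 3) on 9 to 19 reads per sample, and was not tested. GLUD1 and GLUD2 transcripts are nearly alike, and 464 exon bases of GLUD1 overlap SHLD2 on the other strand. This limit is not particular to GLUD1. Genes on the other strand, not found by name in the deposited table, share 651 exon bases with GOT1, 780 with SLC1A5 and 162 with GOT2. Pseudogenes are named after GLUD1 (5), GLUL (4) and GOT2 (4). How reads from such stretches were counted is not given, so some could have been left out or assigned to another gene. Their part in the values was not tested.

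GOT1 and GOT2 encode the cytosolic and mitochondrial aspartate aminotransferases, which move an amino group between glutamate and aspartate and form the malate-aspartate shuttle with the malate dehydrogenases. GOT1, on chromosome 10 from 99396870 to 99431569, had 130, 127 and 135.5 FPKM in sh-NC and 146, 141 and 152 in sh-TRAF2. Its groups did not overlap, and it rose by 11.9% (log2 fold change 0.16, standard error 0.040, limma adjusted p = 0.0114). GOT2, on chromosome 16 from 58707131 to 58734357, had 133, 140 and 128 FPKM in sh-NC and 149, 152 and 143 in sh-TRAF2. Again no samples overlapped, although the highest sh-NC and the lowest sh-TRAF2 sample were close, and the rise was 10.4% (log2 fold change 0.14, standard error 0.041, limma adjusted p = 0.0218).

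Both transaminase rises were small and did not hold in every fit. Under quantile normalization the log2 fold changes of GOT1 and GOT2 were 0.090 and 0.092 with adjusted p of 0.105 and 0.0666. The adjusted p of GOT2 was also 0.0642 without sh-NC replicate 1, 0.0674 without sh-NC replicate 3, 0.0589 when sh-TRAF2 replicate 1 was left out and 0.077 when it was replicate 2 of that group. The ratio of GOT1 to GOT2 was 0.979 ± 0.0753 in sh-NC and 0.991 ± 0.0662 in sh-TRAF2 (SD, n = 3), with overlapping samples.

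**Figure D3:**
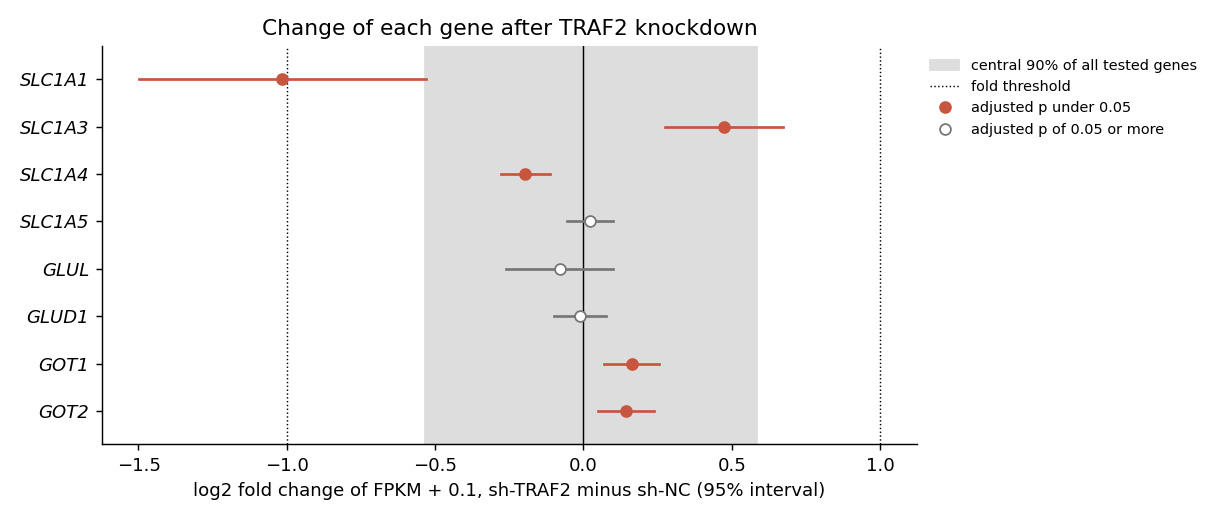
Log2 fold change of FPKM + 0.1 (sh-TRAF2 minus sh-NC) of the 8 genes with its 95% interval from limma; filled points have an adjusted p under 0.05, the grey band holds the central 90% of all tested genes (-0.53 to 0.59) and dotted lines mark the fold threshold. Only the point of SLC1A1, at -1.02, lies outside the band.

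The start sites of the 8 genes were read for short letter patterns named for factors of TNF, stress and nutrient signalling, over RefSeq promoters (GRCh38.p14) of 250 bases before to 50 after each start site. All 8 genes matched, with 14 windows among them. On either strand the ATF4 element (TGATGNAA) was found in 4 windows, and in 3.62% of all 35116 promoters. The NF-kappaB consensus was found in 2 windows (5.91% of all promoters), AP-1 (TGANTCA) in 1 (7.71%), the E-box (CACGTG) in 1 (7.26%) and the cAMP response element (TGACGTCA) in 0 (1.85%). The matches are printed with 10 bases on each side, on the strand of the gene and with the pattern in capitals, to show where such letters lie in the genes that rose, fell or did not pass.
SLC1A3 NF-kappaB: cagaaacctcGGGGTTTCCCcctcctccct
SLC1A3 AP-1: aggagtagccTGAATCAaggctagcca
SLC1A3 AP-1: aattcggagtTGAGTCAttcggggtgg
SLC1A3 ATF4: aggaaatgacTGATGCAAagcagggtta
GOT2 NF-kappaB: ctctggcccaGGGAAGTCCCtgtccttacc
GOT1 ATF4: attgcattggTTGCATCAttctcggcag
SLC1A4 ATF4: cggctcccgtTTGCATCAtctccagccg
SLC1A5 ATF4: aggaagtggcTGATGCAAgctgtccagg
SLC1A5 E-box: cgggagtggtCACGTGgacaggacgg
For SLC1A3 the NF-kappaB letters begin at -106 from a start site in the window chr5:36606356-36606655 (plus strand), the AP-1 letters at -128 and -26 in chr5:36606704-36607003, and the ATF4 letters at -220 in chr5:36596338-36596637. The GOT2 match begins at -17 in chr16:58734267-58734566 (minus strand), the GOT1 match at -198 in chr10:99430575-99430874 (minus strand) and the SLC1A4 match at -7 in chr2:64989149-64989448 (plus strand). The SLC1A5 windows are chr19:46784765-46785064 for ATF4, at -97, and chr19:46787244-46787543 for the E-box, at -50, both on the minus strand. The single window of SLC1A1, chr9:4490218-4490517, held none of the 5 patterns, nor did those of GLUL and GLUD1. Which start site U251 cells use was not measured, and such letters describe the sequence only.

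Outside the 8 genes, 55 genes of the pathway lists were tested, of which 14 rose, 21 fell and 20 did not pass, with a median log2 fold change of -0.044. Over all tested genes 23.7% rose and 20.9% fell, and the counts of this list and of those that follow stand beside these shares as descriptions, with no test of a list. Among carriers of glutamine, cystine and linked amino acids, 6 of 8 tested genes fell and 0 rose, against 20.9% and 23.7% of all tested genes. SLC7A5, the light chain of the LAT1 exchanger that imports leucine against glutamine, fell most, from 213 ± 3.09 to 110 ± 2.94 FPKM (SD, n = 3), and its log2 fold change was -0.95 (standard error 0.032, limma adjusted p = 1.16e-06). SLC38A2, a sodium-coupled importer of glutamine, fell by 0.36 on the log2 scale from 216 ± 10.8 FPKM. SLC38A9, which sits on lysosomes and not at the cell surface, fell by 0.82 from 7.64 ± 0.67 FPKM. The list's median was -0.28, and its summed FPKM was 1314 to 1387 in sh-NC and 1157 to 1168 in sh-TRAF2.

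Of 5 tested carriers of the mitochondrial inner membrane, 2 rose and 0 fell. SLC25A11, the oxoglutarate-malate carrier, rose by 0.17 on the log2 scale and SLC25A12, an aspartate-glutamate carrier, by 0.23, with limma adjusted p of 0.0168 and 0.0228. SLC25A13, the second aspartate-glutamate carrier, had a log2 fold change of -0.10 (adjusted p = 0.0791, limma). The 2 rises were lost in 3 and 5 of the 15 alternative fits. MDH1, the cytosolic malate dehydrogenase of the same shuttle, rose from 67.0 ± 3.22 to 102 ± 3.18 FPKM (SD, n = 3), which limma put at 0.61 on the log2 scale (limma adjusted p = 3.1e-05). MDH1 comes from the transaminase list given next, where 7 of 12 tested genes fell and the median log2 fold change was -0.15. It is named for its small adjusted p, and the shuttle was not tested as a set.

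Of 12 tested transaminase, citric acid cycle and related genes, 2 rose and 7 fell, where 23.7% of all tested genes rose and 20.9% fell. GPT2, the mitochondrial alanine transaminase, was the only one of the 55 genes past the fold threshold. It had 34.1, 35.6 and 35.1 FPKM in sh-NC and 14.9, 17.1 and 16.4 in sh-TRAF2, well apart, with a log2 fold change of -1.11 (standard error 0.055, limma adjusted p = 4.82e-06). KYAT3, a kynurenine aminotransferase that can also act on glutamine, fell by 0.44.

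Of 10 tested enzymes that take the amide nitrogen of glutamine, 5 rose and 3 fell, beside the 23.7% and 20.9% of all tested genes. ASNS, asparagine synthetase, rose by 0.61 on the log2 scale from 4.32 ± 0.29 FPKM, and PPAT, the first enzyme of purine synthesis, rose by 0.40 from 29.8 ± 0.859 FPKM. GFPT1, which opens the hexosamine pathway, fell by 0.32 from 44.9 ± 1.78 FPKM. Among genes from glutamate to proline, glutathione and GABA, 2 of 12 rose and 3 fell. GCLM and GCLC, the subunits of the enzyme that joins glutamate to cysteine, fell by 0.53 and 0.41, while GSS, which completes glutathione, rose by 0.28.

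Of 8 tested regulators 3 rose and 2 fell. NFE2L2, the factor that drives antioxidant genes, fell from 71.3 ± 3.23 to 44.7 ± 0.141 FPKM (SD, n = 3), which limma put at -0.67 on the log2 scale (limma adjusted p = 1.23e-05). NEDD4L, a ubiquitin ligase of membrane proteins, rose by 0.40, and ATF4, a factor of the amino acid response, by 0.19. All 21 ionotropic and metabotropic glutamate receptors analysed were below the filter, the highest at a mean of 0.439 FPKM, so none was tested. Their summed FPKM was 0.561 to 0.823 in sh-NC and 0.975 to 1.17 in sh-TRAF2, a sum of low values that was not tested either.

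**Figure D4:**
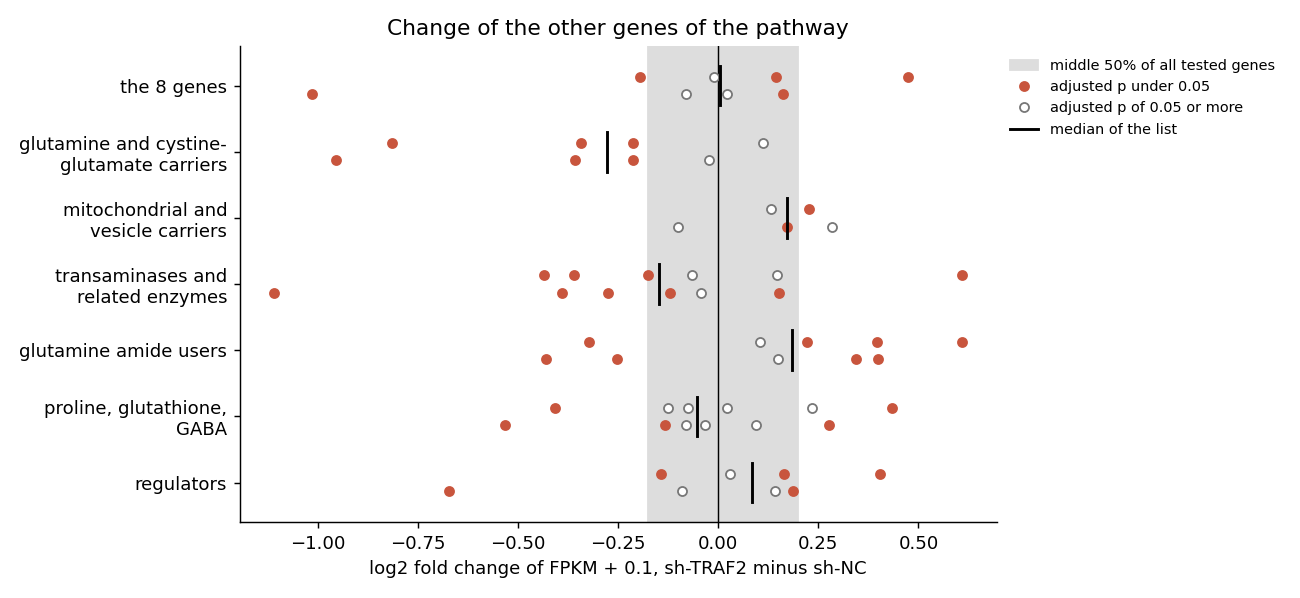
Log2 fold change of FPKM + 0.1 (sh-TRAF2 minus sh-NC) of each tested gene, by list; filled points have an adjusted p under 0.05, the black bar is the list's median and the grey band holds the middle 50% of all tested genes (-0.17 to 0.20). The 2 points left of -1.0 are SLC1A1 among the 8 genes and GPT2, and the carrier list has the lowest median, -0.28.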

How the data were processed

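RNA was sequenced from 6 U251 samples, 3 of each group. The authors deposited 1 table of FPKM values (fragments per kilobase of gene, scaled to sequencing depth) with a column per sample; OE Biotech prepared, sequenced and processed the libraries. The submitters' processing notes name HISAT2, HTSeq, R 3.2.0 and DESeq2. The genome build, annotation and use of strand are not given in the sources used here.

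From the deposited FPKM, log2(FPKM + 0.1) was compared with limma 3.58.1 in R 4.3.3 (eBayes with a trend, two-sided), for the 11870 genes whose mean FPKM reached 0.5, with Benjamini-Hochberg adjustment over all of them. A gene passed at an adjusted p under 0.05; the study's fold threshold adds an absolute log2 fold change above 1. The pseudocount pulls the changes of low genes towards 0. Since 1 read adds a fixed step to a gene's FPKM, read numbers were worked back from the ratios between samples, giving 33999558 to 36823562 reads on genes per sample. The 2643 genes seen in 1 sample alone were given 1 read. The fit was tested on simulated data. Two-sided exact permutation tests ran over the 20 assignments of samples to groups and cannot go below p = 0.1. Nothing says that the samples came from separate cultures beyond the label of biological replicates, so p-values measure the spread between these samples.

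The genes, pathway lists and tests were chosen with earlier results of these data known. Besides the 8 genes and TRAF2, the text names GLUD2 and SLC1A2, the 3 genes of each pathway list with the smallest adjusted p, genes of those lists past the fold threshold, and the 3 genes whose values followed SLC1A1 most closely over the samples; cell type markers, overlapping genes and other list members named without a test result were added after the values were seen. One item that this rule would name is not reported here. The alternatives were other pseudocounts and filters, quantile normalization, TPM rescaling, eBayes without a trend, a block for the replicate number, limma-voom on the recovered reads of 14130 genes, and each sample left out. Gene positions, overlaps and transcripts are from GENCODE release 29 (GRCh38), promoters from RefSeq (GRCh38.p14) and hairpin targets from the study's supplement. Python 3.11.15, numpy 2.4.6, pandas 2.3.3 and matplotlib 3.10.9 were used.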

Additional observations from a re-analysis of the deposited data

How the results depend on the processing

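The count of genes that fell was 2 of 8 in every fit tried, and SLC1A1, SLC1A3, SLC1A4 and TRAF2 kept their direction and an adjusted p under 0.05 throughout. Quantile normalization left 1 gene higher (SLC1A3), took GOT1 to 0.090 and GOT2 to 0.092 on the log2 scale, with adjusted p of 0.105 and 0.0666, and turned SLC1A5 to -0.016. GOT2 stayed at 0.14 but had a limma adjusted p of 0.0596 with no filter and 0.0674 with eBayes without a trend. With no filter more genes were tested, and the standard error of GOT2 also went from 0.0412 to 0.0420. The causes of these results and of those under quantile normalization were not tested. With a pseudocount of 1, 0 genes passed the fold threshold, since it pulls low values together, and SLC1A1 was at -0.60; with 0.01 it was at -1.10, after TPM rescaling at -1.08 and by limma-voom at -1.10. The number of genes past both thresholds over the whole table was 87 with a pseudocount of 1, 262 with no filter and 413 by limma-voom, against 204. With 1 sample left out the counts ranged from 2 to 3 genes higher and from 0 to 1 past the fold threshold, GLUD1 from -0.030 to 0.014, GOT2 from 0.11 to 0.18 and SLC1A1 from -1.22 to -0.85. Whether same-numbered samples form pairs was not settled. They correlated in their deviations at -0.0812, 0.0722 and 0.0728, and differently numbered samples at -0.141 to 0.0673. With the replicate block 5451 genes passed in place of 5297, and SLC1A1 had a limma adjusted p of 0.00121. Its standard error went from 0.21 to 0.12, while that of SLC1A4 went from 0.036 to 0.037. The block changed no call among the genes named in the text. Depth limits GLUD2 and SLC1A2, and the spread between samples limits SLC1A1.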
